A study of Caenorhabditis elegans with 2 samples.

Results

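The regions described here are the autosomal LSY-2 peaks at promoters that face genes of 1 strand only. Each protein-coding gene of the assembly WBcel235 (ce11) was given a promoter window that reached 1000 bp upstream and 200 bp downstream of its 5′ end. A peak was one-sided when its summit lay in the windows of genes of 1 strand and in no window of a gene of the other strand. Of 6312 peaks in the authors' optimal list, 1846 (29.2%) met this rule. They are set beside the 831 autosomal peaks whose summits lay in windows of both strands (two-sided) and the 2643 autosomal peaks outside promoters. Within the optimal list the rule used summit position and strand only, and no score. The list itself holds the 6312 pooled peaks with the highest scores.

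The peaks came from chromatin immunoprecipitation with sequencing (ChIP-seq) of LSY-2 in whole Caenorhabditis elegans at the L2 larval stage, males and hermaphrodites together. The animals were of the strain OP367, unc-119(tm4063) III; wgIs367, a transgenic line in which LSY-2 carries GFP-FLAG at its C terminus. The series holds 1 group of 2 biological replicates, with no other genotype, stage or treatment, so nothing could be tested between conditions. The labels do not name the promoter that drives the transgene. Whole larvae were used, so the signal cannot be assigned to a cell type, and gene expression was not measured.

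LSY-2 is a C2H2 zinc finger transcription factor known from the pair of ASE taste neurons, whose left and right cells take different fates. In the compact C. elegans genome many genes stand head to head and share the stretch between their 5′ ends, while others stand in tandem or in operons, behind a gene of the same strand. A peak at a one-sided promoter can be read against the direction of a single gene, which a peak between divergent genes does not allow. Transcripts of many genes are trans-spliced, so the annotated 5′ end is often the splice acceptor and not the site where transcription starts.

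Some of the strongest of these peaks are shown by the window that holds the summit and 50 bp on either side. Each is read 5′ to 3′ on the strand of the gene. All but that of sec-24.1 hold ACCGTA on either strand, the 6-mer that goes with high scores. In the first set the capitals mark the 6-mer ACCGTA or its reverse complement TACGGT. The set holds the 3 strongest one-sided peaks with this 6-mer, upstream of rpl-3 (a large ribosomal subunit protein), cox-5A (a cytochrome c oxidase subunit) and Y25C1A.8.
rpl-3, chrIII:3867521-3867621, strand +: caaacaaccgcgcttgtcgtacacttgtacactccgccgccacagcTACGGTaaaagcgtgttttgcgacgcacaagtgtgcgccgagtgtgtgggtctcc
cox-5A, chrIII:12905140-12905240, strand +: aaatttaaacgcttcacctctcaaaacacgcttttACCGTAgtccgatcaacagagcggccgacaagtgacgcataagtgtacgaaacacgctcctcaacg
Y25C1A.8, chrII:3077069-3077169, strand -: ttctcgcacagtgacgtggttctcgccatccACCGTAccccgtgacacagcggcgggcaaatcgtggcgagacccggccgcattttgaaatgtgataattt

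The second set shows the 3 strongest peaks that hold GAGAGA, with capitals on that 6-mer or on its reverse complement TCTCTC. These are upstream of unc-16 (a kinesin adaptor of the JIP3 family), rpl-29 and umps-1 (uridine monophosphate synthase). All 5 copies in them read TCTCTC on the strand of the gene. The 3 windows also hold ACCGTA, which is left in lower case here.
unc-16, chrIII:9546112-9546212, strand +: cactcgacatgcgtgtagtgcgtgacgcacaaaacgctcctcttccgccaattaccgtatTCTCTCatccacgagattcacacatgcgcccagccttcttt
rpl-29, chrIV:13881910-13882010, strand +: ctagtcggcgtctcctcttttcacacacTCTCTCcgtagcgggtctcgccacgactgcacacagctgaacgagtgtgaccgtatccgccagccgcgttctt
umps-1, chrIII:10357941-10358041, strand -: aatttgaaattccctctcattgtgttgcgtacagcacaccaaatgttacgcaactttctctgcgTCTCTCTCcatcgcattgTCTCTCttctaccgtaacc

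The third set shows peaks that hold ACGCAG, in capitals as it stands or as CTGCGT, upstream of sec-24.1 (a coat protein of vesicles that leave the endoplasmic reticulum) and rsp-6 (an SR splicing factor). The window of rsp-6 also holds ACCGTA, in lower case. The window of umps-1 above is also 1 of the 3 strongest with this 6-mer: its CTGCGT runs into the first TCTCTC and shares 1 base with it.
sec-24.1, chrIV:11566292-11566392, strand -: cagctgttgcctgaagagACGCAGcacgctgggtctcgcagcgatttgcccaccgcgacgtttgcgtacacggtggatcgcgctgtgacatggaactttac
rsp-6, chrIV:7791354-7791454, strand -: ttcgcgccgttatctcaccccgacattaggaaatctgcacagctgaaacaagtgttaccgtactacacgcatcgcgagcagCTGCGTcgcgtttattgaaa

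Each peak carries a score from the authors' peak caller on a scale that the sources used here do not give, so scores are used to order peaks and to set medians side by side within a list. A ratio of medians is a ratio of these scores and no measure of how much more LSY-2 was bound. The peak of rpl-3 had a score of 20472 in the optimal list, 10873 in replicate 1 and 9656 in replicate 2, and was the highest in each of these lists. The peak of cox-5A had scores of 15628, 8179 and 7490 in the same order. That of Y25C1A.8, with the summit 160 bp upstream, had 7576, 4012 and 3597. Both replicates thus put these peaks near the top of their lists.

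Below these, lin-9, a subunit of the DREAM complex that restrains cell cycle genes, had a score of 6939 (3829 in replicate 1 and 3134 in replicate 2). The peak of sec-24.1 had 5550 (3039 and 2537). The peak of cbp-1, which encodes a histone acetyltransferase of the CBP/p300 family, had 5546 (3049 and 2510), with the summit 892 bp upstream. The other peaks among the 20 strongest lay closer to their gene. For wdr-46, which encodes a WD-repeat protein, the score was 5171 (2837 and 2351). Its peak lay 174 bp upstream, in a gap of 400 bp behind ccr-4, a gene of the same strand.

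The 20 strongest one-sided peaks all ranked at or above 57 among the 6312 optimal peaks and at or above 59 in each replicate. All 20 summits lay upstream of the 5′ end, as did 91.3% of all one-sided summits. Of their genes, 6 encode cytosolic ribosomal proteins (rpl-3, rpl-6, rpl-29, rps-17, rpl-35 and rpl-38), and cox-5A and cox-5B encode subunits of cytochrome c oxidase. The others include cdc-48.1, an ATPase that unfolds ubiquitinated proteins, with a score of 3921 (2191 in replicate 1 and 1756 in replicate 2). They also include egl-30 (a Gq alpha subunit, 3380), ire-1 (a sensor of unfolded proteins in the endoplasmic reticulum, 3357) and mafr-1 (a Maf1 repressor of RNA polymerase III, 3353). In 11 of the 20, the next gene upstream was on the same strand, against 64.1% of all one-sided peaks. The 6-mer ACCGTA was within 50 bp of the summit in 17 of the 20, GAGAGA in 4 and ACGCAG in 3. Over all one-sided peaks the shares of these 6-mers were 6.88%, 24.4% and 17.4%.

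One-sided peaks had lower scores than two-sided ones in the optimal list and in each replicate. In the optimal list the median score was 152 for one-sided peaks (quartiles 87.3 and 287, range 58.0 to 20472), 269 for two-sided peaks and 102 for autosomal peaks outside promoters. In the same number of strongest peaks of replicate 1 the medians were 85.6, 143 and 57.9, over 1828, 844 and 2664 peaks. In replicate 2 they were 71.9, 122 and 48.5, over 1851, 844 and 2626 peaks. The order of the 3 classes was the same in the 3 lists, and the one-sided median was 0.565 of the two-sided median in the optimal list, 0.598 in replicate 1 and 0.589 in replicate 2. The distributions overlapped widely. Of the one-sided peaks, 243 (13.2%) stood in the strongest 10% of the optimal list, against 234 (28.2%) of the two-sided ones, and 147 (7.96%) stood in the weakest 10%, against 13 (1.56%). A width of exactly 400 bp was recorded for 762 one-sided peaks (41.3%) and 18.2% of two-sided ones.

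**Figure D1:**
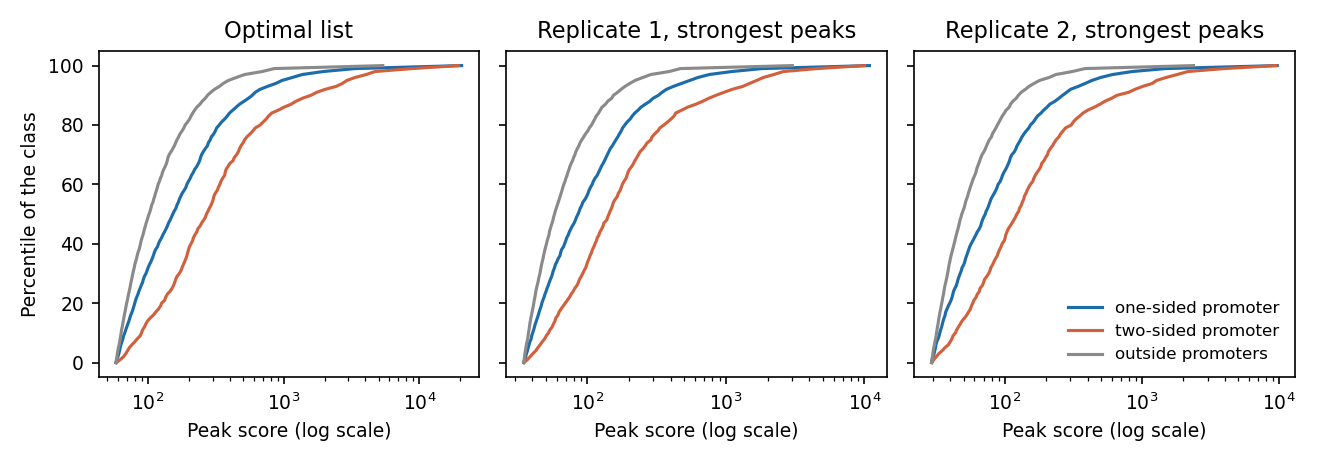
Percentile of each class of autosomal peaks (vertical axis) against the peak score on a log scale (horizontal axis), for the optimal list and for the strongest 6312 peaks of each replicate; score scales differ between panels. The curve of one-sided peaks lies between those of peaks outside promoters and of two-sided peaks in all 3 panels, with medians of 152, 102 and 269 in the optimal list.

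The difference was present at like distances from the gene. Between 200 and 100 bp upstream, the median score was 172 over 416 one-sided peaks and 267 over 304 two-sided peaks, a ratio of 1.55 in favour of the two-sided ones (1.52 in replicate 1 and 1.61 in replicate 2). Between 100 bp upstream and the 5′ end it was 148 against 286, a ratio of 1.93. The ratio was between 1.45 (chromosome II) and 2.0 (chromosome IV) on the 5 autosomes. Among peaks with no ACCGTA it was 1.57 (146 against 229), and among peaks with it 2.11 (771 over 127 one-sided peaks against 1629 over 133 two-sided peaks). With 1 group of 2 libraries there is no test of these ratios.

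The replicates shared most one-sided peaks. A peak counted as shared when a summit among the strongest 6312 of each replicate lay within 200 bp of its own. This held for 1538 of 1846 one-sided peaks (83.3%, exact 95% interval 81.5 to 85.0, which covers the counting of peaks only), against 79.3% of all optimal peaks, 93.5% of two-sided ones and 73.3% of those outside promoters. A further 155 were among the strongest of replicate 1 alone, 131 of replicate 2 alone and 22 of neither. In 5 equal groups from the highest to the lowest score, the shared share was 99.7%, 99.2%, 98.4%, 88.6% and 30.8%. The lowest group, with scores from 58.0 to 79.8, thus had the fewest shared peaks. The optimal list holds the 6312 strongest pooled peaks and sharing is set by a rank limit of the same size, so a fall towards the low end follows in part from how sharing was counted. The classes differ in score, so the differences in sharing between them follow in part from the same count. In the full relaxed lists of 30000 peaks each, 1821 (98.6%) had a summit in both replicates, with a median distance of 18 bp between the replicates' summits. Across these 1821 peaks, which share both libraries, Spearman's rho of the 2 scores was 0.894, against 0.959 across 823 two-sided peaks.

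**Figure D2:**
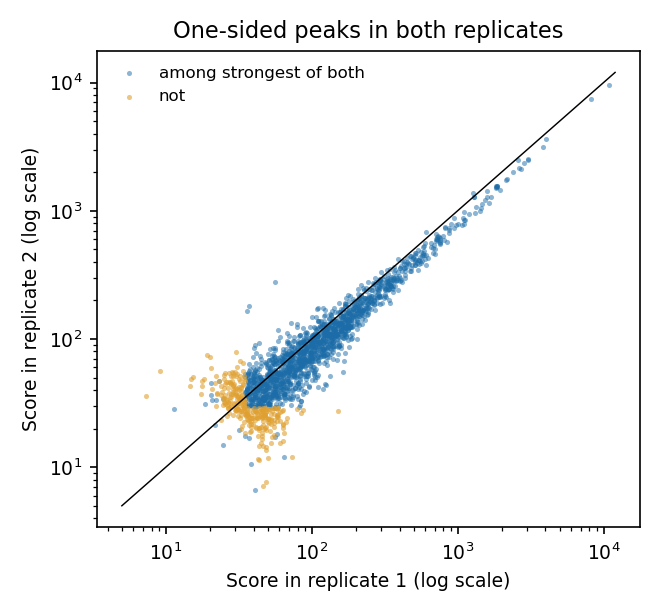
Score of each of the 1821 one-sided peaks found in both relaxed lists, in replicate 1 (horizontal axis, log scale) and replicate 2 (vertical axis, log scale); the line marks equal scores. Scores are those of the nearest summit within 200 bp. Blue points are peaks with a summit among the strongest 6312 of each replicate within 200 bp, at times a neighbouring one, and orange points are the others, which gather at the low end of both axes.

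The limits of the rule fell among peaks whose scores overlapped on either side. The last 100 bp inside the upstream edge held 87 one-sided peaks with a median score of 107, and the next 100 bp outside it held 64 with a median of 136. The nearest inside the edge was that of nol-58, a box C/D small nucleolar RNP protein, 999 bp upstream with a score of 335. Just outside lay that of smi-1, 1002 bp upstream with a score of 152. At the downstream edge the nearest inside was that of lab-2, 195 bp downstream (score 84.1), and the nearest outside that of lis-1, a dynein regulator, just past the edge (score 112). A window longer by 100 bp on the opposite strand would have made 55 one-sided peaks two-sided. Their median score was 198, and the strongest was that of cox-5B (4820). At the low end of the optimal list, one-sided peaks made up 117 of the last 395 autosomal peaks (29.6%) and 111 of the next 409 in the pooled list (27.1%).

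One-sided refers to protein-coding genes. In 236 of the 1846 peaks (12.8%) a gene of another annotated type had its 5′ end on the opposite strand within reach of the same window, and in 58 (3.14%) when piRNA, ncRNA and pseudogene annotations were left out. The median score was 156 with such a gene of any type and 151 without.

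One-sided promoters took up 16.4 Mb of the autosomes and two-sided ones 1.98 Mb. One-sided sequence was 89.3% of the autosomal promoter sequence and held 69.0% of the autosomal promoter peaks. This came to 112 one-sided peaks per Mb, against 421 two-sided peaks per Mb and 41.2 peaks per Mb outside promoters. These densities were not matched for distance from the gene, and the one-sided density ran from 36.2 to 310 per Mb across 100 bp bins. By chromosome there were 431 one-sided peaks on I, 363 on II, 418 on III, 328 on IV and 306 on V. Per Mb of one-sided sequence these were 160, 110, 170, 105 and 63.5, so that III held the most and V the least. The chromosomes had the same order for two-sided peaks, from 642 per Mb on III to 243 on V. It was also the same for peaks outside promoters, from 59.8 on III to 27.3 on V. The middle of 3 equal sections of the chromosomes held 869 of the 1846 (47.1%, interval 44.8 to 49.4) and 37.4% of the one-sided sequence. It held 46.2% of the two-sided peaks.

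Per Mb, one-sided peaks were densest just upstream of the gene. The median position was 235 bp upstream of the nearest 5′ end (quartiles 119 and 449 bp), and 1685 of 1846 summits (91.3%) lay upstream, as did 82.9% of the one-sided sequence. The rule sets the window, so the median moves with it, to 180 bp in a window of 500 bp upstream and 100 bp downstream and to 288 bp in one of 1500 and 300 bp. The fullest 100 bp bin, from 200 to 100 bp upstream, held 416 peaks (22.5%), or 310 per Mb of one-sided sequence, against 62.4 per Mb at the far upstream edge and 36.2 per Mb in the last 100 bp downstream. Two-sided summits had a median of 142 bp and were within 300 bp upstream in 80.6%, against 51.2% of the one-sided ones. Part of this gap follows from the rule, since a two-sided summit has 2 opposite 5′ ends within reach and the nearer is counted. Beyond 500 bp upstream lay 413 one-sided peaks (22.4%) and 25 two-sided ones (3.01%). The far peaks included strong ones: that of eif-3.J, a translation initiation factor subunit, had a score of 3012 at 947 bp. The median score fell in the far bins, from 198 between 300 and 200 bp upstream to 107 in the farthest bin.

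**Figure D3:**
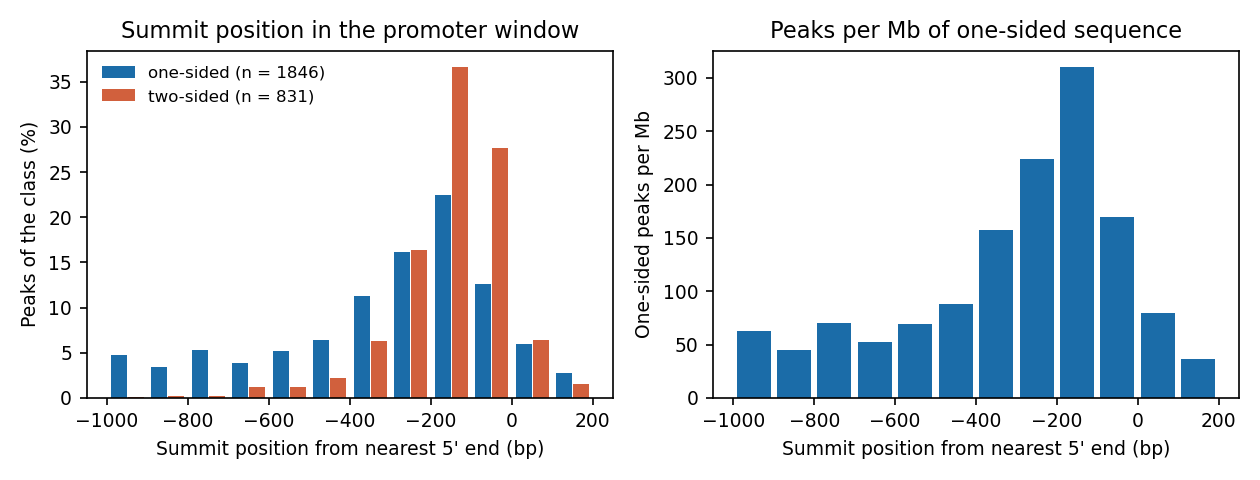
Left, share of one-sided (blue) and two-sided (orange) peaks by summit position from the nearest 5′ end in 100 bp bins, with negative values upstream. Right, one-sided peaks per Mb of autosomal one-sided promoter sequence in the same bins, highest at 310 per Mb from 200 to 100 bp upstream.

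Most summits lay between genes. This held for 1500 of 1846 (81.3%, interval 79.4 to 83.0), against 54.5% of the one-sided promoter sequence. Introns held 148 summits (8.02%, against 13.9% of the sequence), 5′ UTRs 108 (5.85%, against 3.62%) and 3′ UTRs 44 (2.38%, against 5.14%). Coding exons held 46 (2.49%, against 22.8%). Peaks in coding exons had a median score of 86.9, against 162 for those between genes. A further view by gene body put 85 summits inside another gene of the same strand and 113 inside a gene of the opposite strand.

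The upstream neighbour was on the same strand for 1184 of the 1846 peaks (64.1%, interval 61.9 to 66.3) and on the opposite strand for 662. The tandem peaks had a median score of 148 and the others 161. Among genes, 1131 of 1762 nearest to a one-sided peak (64.2%, interval 61.9 to 66.4) had a same-strand neighbour upstream, against 8075 of 11558 genes (69.9%, interval 69.0 to 70.7) that had one-sided promoter sequence and no promoter peak. A same-strand neighbour closer than 500 bp, a spacing at which operon genes also lie, was found for 23.8% of the first group and 24.2% of the second. Peaks in these short gaps were 431 in number, with a median score of 168 (92.4 in replicate 1 and 77.2 in replicate 2), and the strongest was that of wdr-46. Gap length was read among the 13415 genes with one-sided promoter sequence, a smaller base than all 17242 autosomal genes. Of those 250 to 500 bp behind a same-strand gene, 17.8% had a one-sided peak (226 of 1270). The share was 11.1% (222 of 1992, interval 9.8 to 12.6) at gaps under 250 bp and 9.75% (131 of 1343) at gaps over 4000 bp. It was 14.0% at 500 to 1000 bp, 11.8% at 1000 to 2000 bp and 11.4% at 2000 to 4000 bp. Behind an opposite-strand gene the share was 14.0% at 1000 to 2000 bp and 13.8% (244 of 1764) at over 4000 bp. Between these, at 2000 to 4000 bp, 192 of 1283 such genes had a one-sided peak.

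In all, 1812 of 17242 autosomal protein-coding genes (10.5%) had a one-sided promoter peak, and 1632 (9.47%) had a two-sided peak and no one-sided one. Of the 1812, 34 had both kinds. Most had a single one-sided peak (1723 genes), 87 had 2 and 2 genes had 3. The peaks of eel-1, a HECT ubiquitin ligase, had scores of 462, 2105 and 2119 at 818, 590 and 351 bp upstream. Those of tctn-1, a protein of the ciliary transition zone, had scores of 375, 139 and 81.6, and the peak regions of the first and the last start at the same base. For cbp-1 the 2 peaks had scores of 5546 and 256. The region of 115 one-sided peaks (6.23%) overlapped another optimal peak, and 337 summits (18.3%) lay within 1000 bp of the next summit, against 12.5% of the two-sided ones.

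The gene groups below were given by patterns of gene symbols and are set against those background shares of 10.5% and 9.47% of autosomal genes. Protein synthesis genes were above both background shares in each of the 4 lists. Of 76 cytosolic ribosomal protein genes, 23 (30.3%) had a one-sided peak and 46 (60.5%) a two-sided peak only, which leaves 7 with neither. The one-sided ones had a median score of 862 (304 to 20472), and all 23 were among the strongest of both replicates. After rpl-3 these were led by rpl-6 (5087, 347 bp upstream) and rpl-29 (4361, 265 bp upstream). Translation factors followed with 11 of 37 genes (29.7%) one-sided and 19 (51.4%) two-sided only, and a median one-sided score of 586. They were led by eif-3.J (3012), ife-3, a cap-binding eIF4E (2119), and eif-3.C (1283). Of 71 mitochondrial ribosomal protein genes, 17 (23.9%) were one-sided, with a median score of 197 and mrpl-19 highest at 827. Of 32 aminoacyl-tRNA synthetase genes, 9 (28.1%) were one-sided, with kars-1, for lysine, highest at 310.

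Genes of the respiratory chain, proteasome and vacuolar lists had one-sided peaks in about the same proportion as protein synthesis genes. The shares of splicing and chaperone genes were lower, and their intervals include the background of 10.5%. Of 60 respiratory chain genes, 15 were one-sided and 26 (43.3%) two-sided only. After cox-5A and cox-5B the strongest was nduf-9, of complex I, at 932. Of 33 proteasome genes, 9 (27.3%) were one-sided, led by rpn-13 (a ubiquitin receptor, 1838), rpn-11 (a deubiquitinase, 1020) and pbs-4 (915), and 18 (54.5%) were two-sided only. Of 47 genes of vacuolar sorting and the V-ATPase, 16 (34.0%) were one-sided, led by vps-22 (654), and 14 (29.8%) two-sided only. Of 44 splicing genes 6 (13.6%, interval 5.17 to 27.4) had one-sided peaks, 22 two-sided peaks only and 16 neither. Of 56 chaperone genes 8 (14.3%, interval 6.38 to 26.2) had one-sided peaks, 23 (41.1%) two-sided peaks only and 25 neither. Their strongest one-sided peaks were those of rsp-6 (3372) and dnj-9 (921).

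Nuclear and cell cycle genes had both kinds. Of 57 synMuv and chromatin genes, 18 (31.6%) were one-sided and 14 (24.6%) two-sided only. After lin-9 the strongest were set-4, a histone H4 methyltransferase (732), and swsn-3, of the SWI/SNF complex (704). Of 33 replication genes, 12 (36.4%) were one-sided, all shared by both replicates, led by the sliding clamp pcn-1 (979) and the helicase subunits mcm-4 (771) and mcm-10 (307). Of 26 nuclear pore genes 7 (26.9%) were one-sided, led by npp-8 (433). Of 55 genes of RNA polymerase, its general factors and Mediator 12 (21.8%) were, led by rpb-11 (906). Of 20 cell cycle genes 4 were, and the 3 strongest were cdk-5 (1304), a kinase known mainly from neurons, and cdk-7 (664) and cdk-12 (171), which also act on RNA polymerase II.

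In the lists of neuronal, muscle, timing and regulatory genes, more genes had a one-sided peak than a two-sided peak only. This order also held over all autosomal genes (10.5% against 9.47%) and in the vacuolar sorting, synMuv and replication lists, among others. Of 29 synaptic and neuronal genes, 11 (37.9%, interval 20.7 to 57.7) had a one-sided peak and 1 (3.45%) a two-sided peak only. Their scores ran from 61.8 to 278, and 9 of the 11 were shared by both replicates. The strongest were those of the synaptobrevin gene snb-1 (278), the acetylcholine receptor chaperone gene ric-3 (266) and the neuropeptide-processing gene egl-21 (177). Of 40 muscle and actin genes, 10 were one-sided and 5 (12.5%) two-sided only, led by hlh-1, the MyoD homologue (306), unc-112, a kindlin (250), and act-2 (227). The Hox genes are few, and 5 of the 6 had one-sided peaks: ceh-13 (257), nob-1 (192), mab-5 (187), lin-39 (97.6) and egl-5 (78.6), the last 2 being named after their values were seen. The 3 strongest Hox peaks lay 795, 778 and 952 bp upstream. Of 11 heterochronic genes 3 were one-sided, lin-28 (338), lin-66 (253) and blmp-1 (121). Of 246 nuclear receptor genes 22 (8.94%, interval 5.69 to 13.2) were one-sided and 6 (2.44%) two-sided only. The interval of the one-sided share includes the background of 10.5%. Among these genes nhr-49 had the highest score (461). Of 46 homeobox genes named ceh, 5 (10.9%, interval 3.62 to 23.6) were one-sided, with ceh-20 highest at 426, and 2 (4.35%) two-sided only. Of 19 helix-loop-helix genes 3 (15.8%, interval 3.38 to 39.6) were one-sided, hlh-11 (405), hlh-1 (306) and hlh-30 (193), and none two-sided only. The one-sided intervals of the heterochronic, ceh and helix-loop-helix lists include the background of 10.5%.

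Several large gene families had few one-sided peaks. Of 1322 chemoreceptor genes 6 (0.454%, interval 0.167 to 0.985) had a one-sided peak, with scores from 58.9 to 164, and 2 of the 6 were shared by both replicates. Of 236 C-type lectin genes 3 (1.27%) had one, of 130 cytochrome P450 and UDP-glucuronosyltransferase genes 3 (2.31%), of 395 F-box, MATH and BTB genes 13 (3.29%), of 144 collagen genes 6 (4.17%) and of 110 neuropeptide and insulin genes 4 (3.64%). Two-sided peaks were also few in these families. A two-sided peak only was found for 0.605%, 0.424%, 0.0%, 3.29%, 4.17% and 0.909% of their genes in the same order, against 9.47% over all autosomal genes. Of 77 histone genes 4 (5.19%, interval 1.43 to 12.8) had a one-sided peak, led by his-37 (1420), and 9 (11.7%) a two-sided peak only. The interval of the one-sided histone share includes the background of 10.5%. Of 94 germline genes 4 (4.26%) were one-sided, led by mes-2, the Polycomb methyltransferase (511), and 8 (8.51%) two-sided only. The two-sided shares of histone and germline genes were thus near the background of 9.47%. Among 41 genes of ASE asymmetry and guanylyl cyclases, 3 (7.32%) had a one-sided peak and 2 (4.88%) a two-sided peak only. The interval of the one-sided share, 1.54 to 19.9, includes the background of 10.5%. The 3 were lsy-12, a histone acetyltransferase (294), unc-37, the Groucho corepressor (242), and gcy-28 (58.4).

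**Figure D4:**
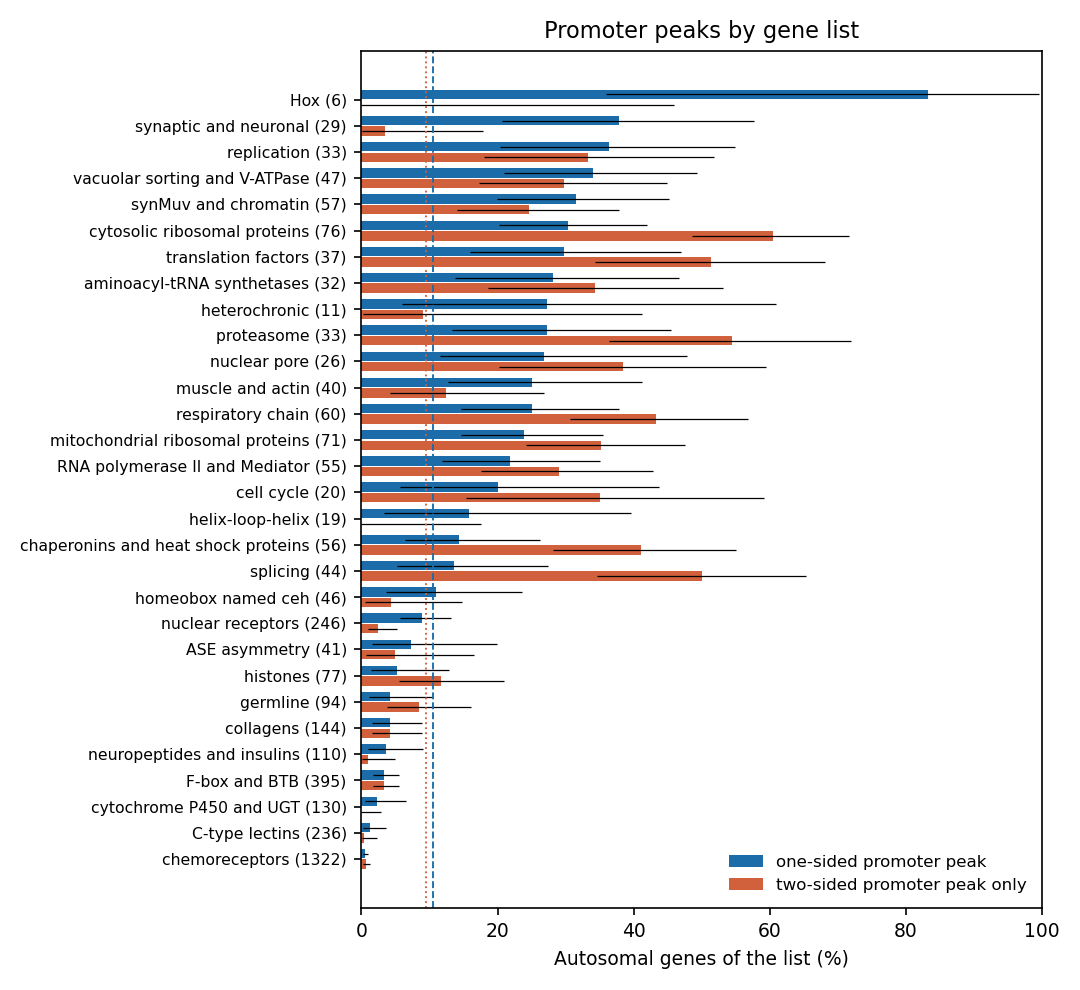
Share of the autosomal genes of each list (number of genes in brackets) with a one-sided promoter peak (blue) or a two-sided promoter peak only (orange), with exact 95% intervals that cover the counting of genes only. The dashed and dotted lines mark the shares over all 17242 autosomal genes, 10.5% and 9.47%, and the orange bar is longest for the cytosolic ribosomal proteins (60.5%).

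The windows of 50 bp on either side of one-sided summits held ACCGTA, on either strand, in 127 of 1846 windows (6.88%, interval 5.77 to 8.13), GAGAGA in 451 (24.4%, 22.5 to 26.5) and ACGCAG in 322 (17.4%, 15.7 to 19.3). In windows of the same size 150 bp upstream of the 13798 autosomal genes with no promoter peak, the shares were 3.02%, 7.36% and 2.48%, and over all 17242 genes 3.37%, 8.17% and 3.22%. In the windows 300 bp gene-upstream of the same summits they were 3.2%, 5.74% and 2.0%. Two-sided summits held ACCGTA in 16.0% and GAGAGA in 16.6%, and peaks outside promoters in 5.41% and 33.4%. Along both 6-mers one-sided peaks thus lay between these classes. ACGCAG was in 14.1% of two-sided windows and 14.2% of those outside promoters. With 25 bp and 100 bp on either side GAGAGA was in 14.0% and 38.0% of one-sided windows and ACGCAG in 9.48% and 23.0%. The G+C content of the windows was 43.8% at one-sided summits, 44.8% at two-sided ones and 33.4% upstream of genes with no promoter peak, so base composition differed along with the 6-mers, and its part in these shares was not tested.

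Scores differed most with ACCGTA. The median score was 771 with ACCGTA and 146 without, a ratio of 5.29 (5.39 in replicate 1 and 4.77 in replicate 2). In the same 5 groups from the highest to the lowest score, ACCGTA was in 21.4%, 4.07%, 3.25%, 2.98% and 2.7% of windows. It was thus frequent in the highest group and at about the level of promoters with no peak in the others. GAGAGA was least frequent in the highest group, at 16.3%, against 26.6%, 30.9%, 25.2% and 23.2% in the next ones, and the median score was 152 with it and 153 without. ACGCAG was in 19.0%, 19.0%, 21.4%, 17.6% and 10.3%, with medians of 171 and 146. The G+C content of the windows fell over the same groups, at 47.3%, 45.1%, 43.3%, 42.6% and 40.5%. Its part in these shares was not tested. Among peaks with a copy within 200 bp, the nearest ACCGTA lay a median of 32.5 bp from the summit, the nearest ACGCAG 34 bp and the nearest GAGAGA 46 bp.

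ACGCAG and GAGAGA were often in the same window. Of the 322 windows with ACGCAG, 127 (39.4%) also held GAGAGA, which is 28.2% of the windows with GAGAGA. In 49 of the 127 the last A of GAGAGA was also the first A of ACGCAG on the same strand, as near umps-1. This joined form was in 2.65% of one-sided windows (interval 1.97 to 3.49), 1.93% of two-sided ones, 2.76% of those outside promoters and 0.145% of those upstream of genes with no promoter peak. Among windows with both 6-mers the shares were closer, at 38.6% for one-sided and 41.0% for two-sided summits. They were 73 of 203 outside promoters and 32.3% (20 of 62) upstream of genes with no promoter peak. The contrast with those genes was thus mostly in how often both 6-mers shared a window, and less in how often they were joined. The 49 one-sided peaks with the joined form had a median score of 183, against 151 for the others. ACCGTA shared a window with GAGAGA in 11 cases and with ACGCAG in 14. At least 1 of the 3 6-mers was in 752 windows (40.7%).

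The gene's direction allowed the strand of each copy to be read. Of the 894 GAGAGA copies, 337 were on the gene's sense strand and 557 on the antisense strand, so 37.7% were sense (interval 34.5 to 41.0). Overlapping copies were counted singly and the copies came from 451 windows, so they are not independent and this interval is too narrow. Among windows with copies on 1 strand only, 35.3% were sense (152 of 430, interval 30.8 to 40.1). The same share was 27.6% (24.8 to 30.4) upstream of genes with no promoter peak and 41.9% at two-sided summits read on the nearer gene, so an excess of TCTCTC on the sense strand was present in promoters that LSY-2 peaks did not mark. ACGCAG was sense in 38.7% of such windows (33.3 to 44.4), against 39.2% upstream of genes with no promoter peak. For ACCGTA the 60 sense and 70 antisense copies gave 46.2% sense (37.4 to 55.1), an interval that includes equal shares. In the strongest 50% of the optimal list the sense share of GAGAGA copies was 43.4%.

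The sequence on the 2 sides of the summit was not alike. G+C content rose from 33.3% at 140 to 120 bp gene-upstream of the summit to 46.9% at the summit and fell to 33.1% at 120 to 140 bp gene-downstream. Thymine on the strand of the gene was 28.7% at the summit and reached 39.7% between 80 and 100 bp downstream, where adenine was 25.1%. On the upstream side its highest value was 36.1%. Two-sided peaks, read on the nearer gene, had a narrower G+C peak, of 50.4% at the summit. The 6-mer TTTCAG, the C. elegans splice acceptor, was in 7.64% of summit windows and 25.8% of windows 300 bp downstream, where 71.3% of windows with copies on 1 strand had them on the sense strand (66.8 to 75.4). At 300 bp upstream it was in 17.6%, with 56.8% sense. The A+T-rich AAAATT was in 22.2% of summit windows and 43.6% and 42.5% of the upstream and downstream ones, and TATAAA in 6.39%, 13.1% and 11.4%.

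**Figure D5:**
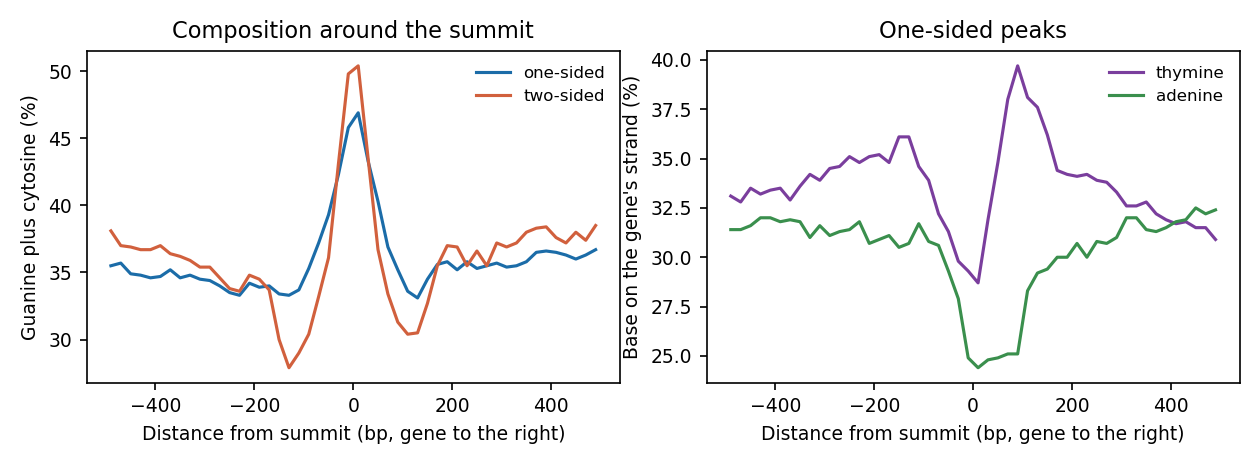
Left, guanine plus cytosine content in 20 bp bins around one-sided (blue) and two-sided (orange) summits, read on the strand of the nearer gene. Right, thymine (purple) and adenine (green) on the strand of the gene around one-sided summits, with thymine highest, at 39.7%, between 80 and 100 bp on the gene side; both vertical axes start above 0.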

How the data were processed

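Per the file lists deposited with the samples, the authors called relaxed peak lists on each replicate and on both pooled, against a control that was not analysed here, and derived the optimal list from them with the irreproducible discovery rate (IDR) method. It holds the 6312 pooled peaks with the highest scores. The names of the aligner and peak caller and the IDR threshold are not given in the sources used here. Within a list, peaks were ranked by the authors' score. The −log10 of the q-value that the authors deposited was 4.26 for all optimal peaks and was not used. Depth is unknown, as these peak lists carry no read counts.

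From these files were computed, with Python 3.11.15, pandas 2.3.3 and numpy 2.4.6, the class of each summit against Ensembl release 115 genes (symbols from RefSeq for 46881 of 46926 genes), distances, shares with exact Clopper-Pearson 95% intervals (scipy 1.17.1), and 6-mer matches on both strands of windows of WBcel235 that reach 50 bp to either side of a summit, after a check on simulated positions. Replicates were compared by their strongest 6312 peaks. No test was made, since the series holds 1 group. Peaks take the name of the nearest gene on their side. Genes named are those of the 20 strongest peaks, the strongest per chromosome, up to 3 per list and per 6-mer, those nearest the limits and those with the most peaks; strongest genes of distance bins and of the smallest lists were added after their values were seen. Printed sequences leave out chromosome I and windows that overlap a UTR. The regions, 6-mers and 30 gene lists were chosen with earlier results of these data known, and 3 list patterns (chemoreceptor, F-box and replication genes) were corrected after a first count because they took in other genes. Alternatives were other windows, all transcripts, opposite-strand genes of every type, stricter peak sets, each replicate alone, other sequence windows and other matching distances.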

Additional observations from a re-analysis of the deposited data

How the results depend on the processing

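Across 12 results and their alternatives, 71 of 105 values stayed within 1.5 times (counts), the 95% interval (shares) or the SD between replicates (ratio and distance), and 34 moved. With windows of 500/100 bp and 1500/300 bp, one-sided peaks were 73.8% and 66.3% of promoter peaks, the median distance 180 and 288 bp and the same-strand share 56.3% and 67.9%; the score ratio was 0.572 with the longer and shared peaks 85.5% with the shorter window. With 5′ ends of all transcripts the one-sided share was 71.2% and the score ratio 0.527. Among the strongest 50% of peaks there were 1081 one-sided peaks at 1097 genes, with a one-sided share of 61.6%, a score ratio of 0.76, 99.3% shared, ACGCAG in 19.8%, ACCGTA in 9.71% and 43.4% sense GAGAGA copies. Among peaks shared by both replicates the one-sided share was 66.4% and the score ratio 0.635. With opposite-strand genes of every type they were 60.1% and 0.655, with a distance of 228 bp and 34.2% sense GAGAGA copies. With 25 and 100 bp on either side of the summit GAGAGA was in 14.0% and 38.0%, ACGCAG in 9.48% and 23.0% and ACCGTA in 4.71% and 8.72%. With summits matched within 100 bp, 80.1% were shared. With each replicate alone the score ratio was 0.589 to 0.598 and the distance 230 to 236 bp. The score ratio stayed below 1 and GAGAGA stayed mostly antisense under every alternative run. No paired analysis was possible because the series holds 1 group and no test. Depth is unknown, so no limit from it can be given.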

Other observations

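Some one-sided peaks lay near short non-coding RNA genes, and the share set beside two-sided peaks differed in direction between RNA types. Within 200 bp of the summit there was a tRNA gene for 25 of the 1846 peaks (1.35%, interval 0.878 to 1.99), against 3 of 831 two-sided peaks (0.361%, 0.0745 to 1.05). Small nucleolar RNA genes were near 26 (1.41%) and 4 (0.481%), and small nuclear RNA genes, which encode the RNAs of the spliceosome, near 13 (0.704%) and 2 (0.241%). The 13 peaks near small nuclear RNA genes had a median score of 376, and the strongest, with a score of 1579, lay in the window of egg-5. The 25 near tRNA genes had a median of 117. Shares ran the other way for genes annotated as ncRNA (9.26% against 10.8%), piRNA (0.433% against 1.08%) and miRNA (0.0542% against 0.241%). Several of these counts are below 5, no background share was computed, and none of these differences was tested. These peaks are named by protein-coding genes under the rule used here, and which gene a peak belongs to was not tested.

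On X, 341 peaks were one-sided and 36 two-sided, with 90.5% of promoter peaks and 96.3% of promoter sequence one-sided. The median score of the one-sided ones was 123, against 135 to 168 on the autosomes, and their number per Mb of one-sided sequence was 114, against 112 on the autosomes together.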
